A study of Mus musculus with 59 samples.

Results

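A set of 10 genes of the megakaryocyte and erythroid lineages was followed through every gene-level expression table of a study of the histone H3.3 chaperone Daxx in mouse blood-forming cells. The genes were listed by name, with no threshold on a measured value, though with earlier results of these data known: Gfi1b, Gata1, Gata2, Klf1, Tal1, Pf4, Vwf, Itga2b, Car1 and Zfpm1. Each of the 10 names had 1 row in each table, out of 51810 rows in the tables with a stated time after induction and 51812 in the untimed tables. The tables held 59 RNA-seq libraries of 5 sorted bone marrow populations.

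The labels give C57BL/6 and 1 copy of a Cre transgene for all samples, WT included. KLS cells (Lin−c-Kit+Sca-1+) are the compartment of stem and multipotent progenitor cells, and GMP cells (granulocyte-monocyte progenitors, c-Kit+ cells without Sca-1 or lineage markers that carry CD34 and CD16/32) are committed to the myeloid lineage. LT-HSC (long-term haematopoietic stem cells) are the CD48−CD150+ fraction of KLS cells, and the multipotent progenitors MPP3 and MPP4 are its Flk2−CD48+CD150− and Flk2+CD48+CD150− fractions. The lineage antibodies included TER-119, so maturing erythroid cells were depleted before sorting.

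In the Mx1Cre line, in which injected pI:pC switches the recombinase on through an interferon-responsive promoter active well beyond blood cells, KLS and GMP cells were taken 3 or 24 weeks post induction (w.p.i.). At 3 w.p.i. there were 3 Daxx +/+ (WT), 3 Daxx F/F (Daxx-KO) and 2 Daxx F/F Pu.1 F/F (DKO) libraries of each population. At 24 w.p.i. there were 2 WT libraries and 4 Daxx F/F libraries of each population. The labels list 2 Daxx-KO and 2 DKO samples at this time, but the column names do not say which of the 4 are which, so values are given without a test. A separate Pu.1 line, also Mx1Cre at 3 w.p.i., gave 2 Pu.1 +/+ and 2 Pu.1 F/F (Pu.1-KO) libraries of each population. Genotypes of this line, of the 24 w.p.i. set and of the unnumbered WT animal at 3 w.p.i. were not read from sample titles. They were read from column-name endings in the repeat-element counts that the labels name. An untimed set held 2 Daxx +/+ and 2 Daxx F/F libraries of each population, and its labels name neither the Cre line nor a time. The methods also describe CD45.2+ KLS and GMP cells sorted from irradiated hosts that had received donor marrow. The labels do not say whether the untimed set is made of these cells. For KLS and GMP RNA-seq of the Daxx line the paper names these hosts and mice at 3 and 24 w.p.i., and no other source. MPP3 and MPP4 came from 4 Mx1Cre animals at 3 w.p.i. and LT-HSC from 7 RosaCreER animals 3 days after tamoxifen. Their labels list WT and Daxx F/F samples of both MPP populations, and WT, Daxx +/F and Daxx F/F samples of LT-HSC, but the columns do not tell the genotypes apart. The methods describe mice of both sexes that were usually treated as young adults.

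The lineage that gives platelets and red cells shares a small set of regulators. Gata2 acts early, in stem and progenitor cells, and Gata1 takes over its sites as cells commit, with Zfpm1 (also called FOG-1) as the cofactor that binds the GATA zinc finger. Tal1 is a bHLH factor that forms complexes with GATA factors at E-boxes next to GATA sites and is needed for blood stem cell formation. Gfi1b is a transcriptional repressor that recruits histone demethylase and deacetylase complexes and is required in both lineages. Klf1 is a zinc finger factor that binds CACC-box sequences and activates globin and other red cell genes. The remaining members are products of the lineage rather than regulators. Itga2b encodes the platelet integrin subunit CD41, Pf4 the platelet chemokine CXCL4, and Vwf the adhesive von Willebrand factor, which in marrow marks megakaryocytes and platelet-biased stem cells. Car1 encodes carbonic anhydrase 1, an enzyme of early erythroid cells. Pu.1, the product of Spi1, is known to bind GATA1 and the factors can oppose each other.

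All 10 genes have their own gene model in the GENCODE annotation of the mouse genome build GRCm38, and none of the 10 overlaps an exon of another gene. Gfi1b lies at chr2:28609450-28621982 on the minus strand, Gata1 at chrX:7959260-7978071 on the minus strand and Gata2 at chr6:88193891-88207032 on the plus strand. Zfpm1 lies at chr8:122282141-122337251 and Klf1 at chr8:84901928-84905291, both on the plus strand. Tal1 lies at chr4:115056426-115071755 on the plus strand. Itga2b lies at chr11:102453297-102470122 on the minus strand, Pf4 at chr5:90772435-90773383 on the plus strand, Vwf at chr6:125546774-125686679 on the plus strand and Car1 at chr3:14766216-14808368 on the minus strand.

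Because GATA factors are themselves members, the promoter windows of the members were searched for GATA words. RefSeq promoters (GRCm38.p6, 250 bases before to 50 after each start) were found for 8 of the 10 genes as 10 windows, with 2 windows each for Gata2 and Tal1. The words AGATAA and TGATAA were searched on both strands, and 4 of the 10 windows held either. Among all 32851 promoters, 18.6% held either, with AGATAA in 11.2% and TGATAA in 9.05%. The E-box CANNTG was in 7 of the 10 windows beside 72.3% of all promoters, the CACC-box word CACCC in 7 beside 57.5%, and AAATC, the core of Gfi1b's binding sequence, in 2 beside 35.9%. These are matches of letters, not sites of binding. The 3 members with a GATA word upstream of the gene model are shown because the word is in the gene of another member of the same network. Capitals mark the GATA word, and no other searched motif overlaps it. Gfi1b is at chr2:28621983-28622232 (minus strand), Klf1 at chr8:84901732-84901927 (plus strand) and Tal1 at chr4:115056176-115056425 (plus strand), each read 5′ to 3′ on the strand of the gene.
Gfi1b: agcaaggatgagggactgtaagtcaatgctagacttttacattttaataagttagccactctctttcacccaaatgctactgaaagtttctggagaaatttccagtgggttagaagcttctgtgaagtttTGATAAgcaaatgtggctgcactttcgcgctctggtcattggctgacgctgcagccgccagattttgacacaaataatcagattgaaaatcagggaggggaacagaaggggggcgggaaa
Klf1: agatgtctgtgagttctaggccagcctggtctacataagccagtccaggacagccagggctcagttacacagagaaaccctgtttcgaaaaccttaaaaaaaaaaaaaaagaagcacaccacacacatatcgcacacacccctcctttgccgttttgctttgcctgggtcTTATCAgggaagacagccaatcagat
Tal1: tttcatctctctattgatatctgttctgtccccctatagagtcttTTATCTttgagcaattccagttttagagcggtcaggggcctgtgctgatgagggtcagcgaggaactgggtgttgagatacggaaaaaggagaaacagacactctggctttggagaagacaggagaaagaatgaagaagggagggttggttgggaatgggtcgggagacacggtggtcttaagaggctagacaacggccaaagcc
In Gfi1b the word was TGATAA at position −120 from the RefSeq start. In Klf1 it was TGATAA on the opposite strand at −80, and in Tal1 AGATAA on the opposite strand at −205. The remaining match was AGATAA in the Pf4 window, at position 37 from the RefSeq start and thus after it.

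Depth ranged from 3045852 to 30136629 reads per library over the 59 libraries, and no pair of libraries in a group agreed within sampling noise. In the KLS and GMP tables Daxx was lower in every library labelled Daxx F/F than in the WT libraries of the same table, for example 72.2 to 102 against 423 to 505 normalised counts in KLS cells at 3 w.p.i. Spi1 reads were not lost in the libraries labelled DKO, at 2993 to 3330 normalised counts against 1669 to 2320 in WT KLS cells. Nor were they lost in Pu.1-KO, at 1307 to 2920 against 2080 to 2764. These counts are over the whole gene and cannot show whether the allele was recombined, for which the methods describe a PCR. Libraries that stood apart from the others of their table in their correlation over genes were MPP3 d, MPP4 a and Pu.1-KO b of the KLS cells. In the untimed set, genes that define the sorted populations differed between genotypes. Mecom, a stem cell factor that is not part of the KLS gate, was at most at 39.4 normalised counts in Daxx-KO against 11284 to 11791 in WT KLS cells. In GMP cells Fcgr3 was at 19.6 to 87.2 against 654 to 712 and Cd34 at 24.9 to 75.0 against 436 to 556. Fcgr3 and Cd34 encode surface markers of the GMP gate, so the untimed Daxx-KO GMP libraries do not have the marker levels of their labelled population.

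In WT cells the members were expressed at different levels along the compartments, here in reads-per-million (rpm), which were set side by side across separately normalised tables without a test. Zfpm1 was at 509 rpm in KLS cells at 24 w.p.i. (508 to 510), within the range at 3 w.p.i. (323 to 532), and its median over 7 LT-HSC libraries of mixed genotype was 933 rpm. Gata2 was at 245 rpm in KLS cells at 3 w.p.i. (129 to 258), which overlapped 24 w.p.i. (216 to 226), and Tal1 was at 149.5 rpm (109.5 to 156), again overlapping 24 w.p.i. (141 to 149). Medians of Gfi1b, Gata2 and Tal1 were higher in all 4 WT KLS conditions than in all 4 WT GMP conditions. Gfi1b reached 56.7 rpm in KLS cells at 24 w.p.i. and was at 6.81 rpm in GMP cells at 3 w.p.i. (4.10 to 9.66) and 6.84 rpm in untimed GMP cells (6.79 to 6.88), which overlapped.

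The lineage products followed a different order. Pf4 was highest in KLS cells of the Pu.1 line (66.9 rpm, 51.1 to 82.8) and lowest in the untimed KLS cells (3.86 rpm, 2.79 to 4.93), which overlapped KLS cells at 3 w.p.i. (3.91 to 5.88). Itga2b was also highest in KLS cells of the Pu.1 line (78.6 rpm, 73.4 to 83.7), but GMP cells at 3 w.p.i. reached into that range (41.9 to 83.1). Vwf was at 192 rpm in KLS cells at 24 w.p.i. (135 to 250), overlapping 3 w.p.i. (105 to 162), and at 13.5 rpm in GMP cells at 3 w.p.i. Gata1, Klf1 and Car1 were highest in KLS cells at 24 w.p.i., at medians of 29.4, 45.2 and 135 rpm, and lowest in the untimed KLS cells, at 3.59, 0.648 and 7.37 rpm. In the untimed KLS cells Klf1 overlapped untimed GMP cells, and Car1 overlapped GMP cells at 3 w.p.i. The WT level of the more mature erythroid members thus differed more between tables than the level of Gata2 or Tal1. Age, kit, line and possible transplantation of the untimed cells cannot be told apart there.

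Between genes, levels were compared per kilobase of exon, in WT cells at 3 w.p.i. In KLS cells Zfpm1 was highest at 131.9 rpm per kb, followed by Gata2 at 45.4, Tal1 at 34.1, Car1 at 26.9 and Gfi1b at 17.6 rpm per kb. Itga2b (11.9), Vwf (9.12), Pf4 (6.69), Klf1 (5.17) and Gata1 (4.88) completed the order. In GMP cells Gata2 (17.2), Zfpm1 (15.6) and Itga2b (13.1) led, with Vwf lowest at 0.839 rpm per kb. Gata1, Pf4 and Itga2b were the members whose median per kb was higher in GMP than in KLS cells.

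**Figure D1:**
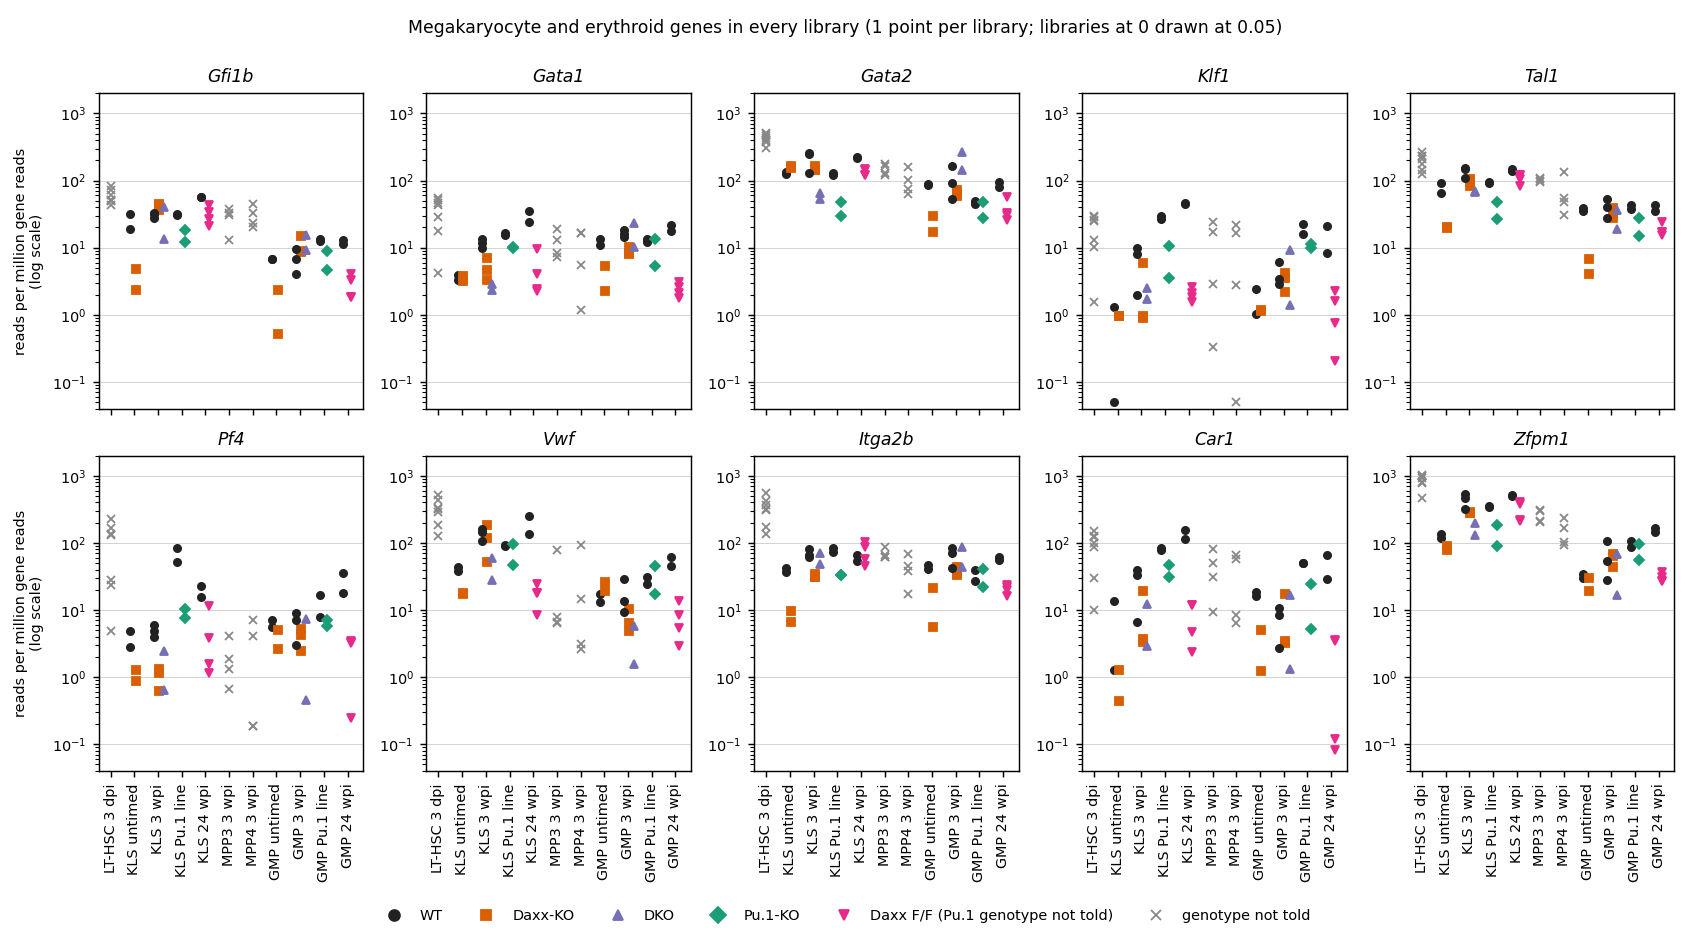
Level in rpm (log axis) of each of the 10 genes in all 59 libraries, by sorted population and condition on the horizontal axis, with 1 point per library coloured by genotype and a value of 0 drawn at 0.05. At 24 w.p.i. the WT points of every gene except Itga2b in KLS cells lie above the Daxx F/F points.

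At 24 w.p.i. the genes separated WT from Daxx F/F cells in both populations. In KLS cells 9 of 10 genes were lower in all 4 Daxx F/F libraries than in both WT libraries, and none was higher throughout. Of all 16485 genes with a mean of at least 10 normalised counts, 8.76% were lower and 9.05% higher without overlap. In GMP cells all 10 were lower without overlap, beside 12.1% of 16894 genes lower and 12.7% higher. The 4 libraries of a population hold both Daxx-KO and DKO cells, and the KLS and GMP libraries of the same letter come from the same animals, so the populations are not independent. In bulk RNA fewer cells of a type and less RNA per cell cannot be told apart, here and in every comparison that follows.

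The erythroid activator Klf1 was at 1098 and 1052 normalised counts in WT KLS cells and at 49.8, 37.5, 67.2 and 42.6 in the Daxx F/F libraries. In GMP cells it was at 188 and 464 in WT and at 4.58, 37.9, 17.4 and 52.4 in Daxx F/F. The WT mean was 23.3 times the Daxx F/F median in KLS cells and 11.8 times in GMP cells.

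Gata1 was at 574 and 821 normalised counts in WT KLS cells and at 52.9, 98.7, 243 and 56.8 in Daxx F/F, with library c closest to WT. In GMP cells it was at 503 and 397 against 69.6, 49.994, 40.3 and 58.6. The ratios of WT mean to Daxx F/F median were 8.97 and 8.29. The earlier factor Gata2 separated less: KLS cells had 5431 and 5091 in WT against 3465, 2950, 3733 and 2874 in Daxx F/F (ratio 1.64), and GMP cells 1830 and 2120 against 688, 612, 737 and 1310 (ratio 2.77).

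The GATA cofactor Zfpm1 was at 12184 and 12039 normalised counts in WT KLS cells and at 9493, 5412, 5387 and 8913 in Daxx F/F, a ratio of 1.69. In GMP cells it was at 3758 and 3276 against 613, 862, 714 and 632, a ratio of 5.23. The ratio in GMP cells was thus larger than in KLS cells for Zfpm1, and the same held for Gfi1b, Gata2, Tal1, Pf4, Itga2b and Car1. The repressor Gfi1b was at 1372 and 1324 in WT KLS cells against 811, 656, 538 and 1020 (ratio 1.84), and in GMP cells at 301 and 254 against 42.1, 77.3, 42.2 and 93.0 (ratio 4.65). Tal1 was at 3375 and 3513 in WT KLS cells against 2856, 2587, 2130 and 2826 (ratio 1.27), the smallest separation of the 9, and at 977 and 788 against 355, 397, 389 and 551 in GMP cells (ratio 2.25).

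Among the platelet genes, Vwf was at 5997 and 3174 normalised counts in WT KLS cells and at 428, 210.5, 616 and 428 in Daxx F/F, a ratio of 10.7. In GMP cells it was at 1394 and 999 against 65.0, 323, 194 and 123, a ratio of 7.55. Pf4 was at 369 and 532 in WT KLS cells against 37.3, 94.6, 289.7 and 26.7, and at 812 and 394 in GMP cells against 5.49, 77.3, 72.4 and 79.8. Itga2b was the exception. In KLS cells its WT libraries, at 1303 and 1555, lay inside the Daxx F/F range of 1095 to 2400, whereas in GMP cells WT was at 1389 and 1248 against 364 to 544. Car1, the early erythroid enzyme, was at 2707 and 3691 in WT KLS cells against 109, 288, 303 and 56.0, a ratio of 16.1. In GMP cells it was at 653 and 1469 against 1.83, 81.8, 2.75 and 82.9, a ratio of 25.1 and the most uneven set of the Daxx F/F values.

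**Figure D2:**
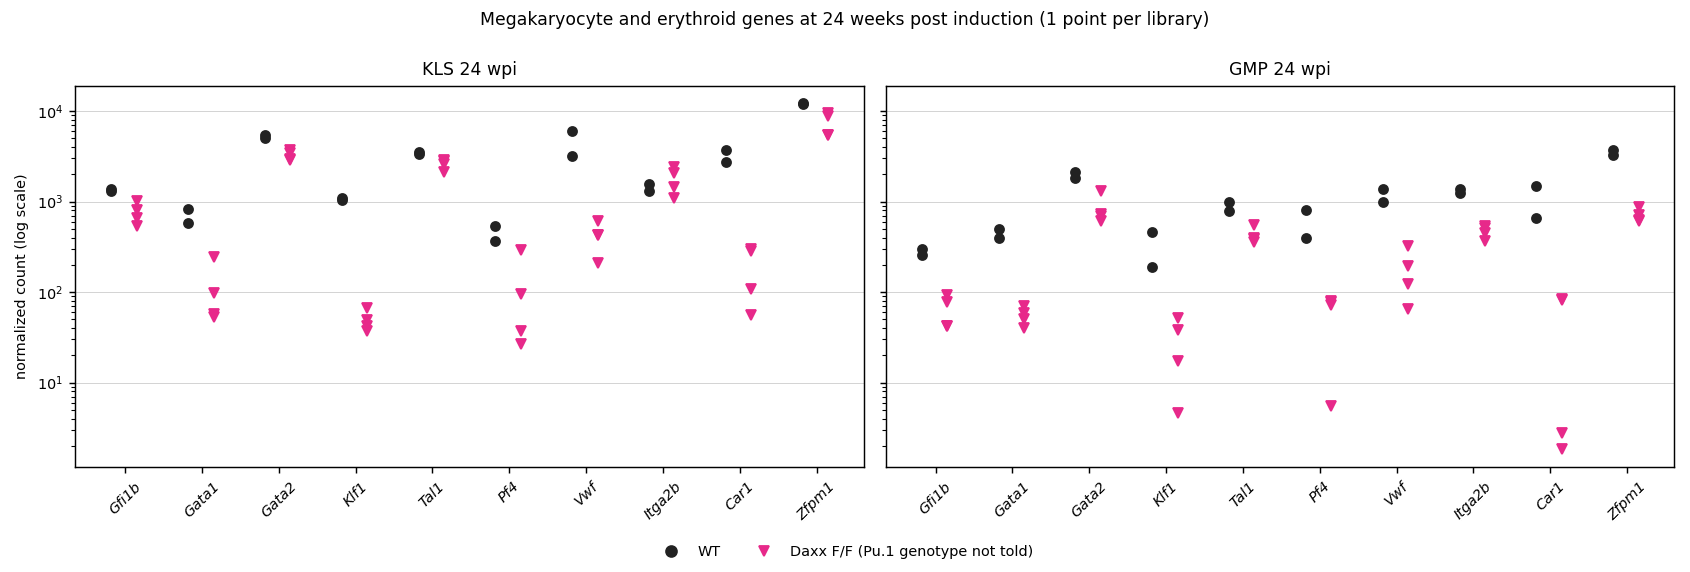
Normalised counts (log axis) of the 10 genes in KLS and GMP cells at 24 w.p.i., 1 point per library, 2 WT and 4 Daxx F/F. Klf1 and Car1 show the widest gaps and Itga2b in KLS cells is the only gene whose groups overlap.

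Other genes of the red cell lineage had the same order in these libraries. Of a list of erythroid genes outside the 10, 25 of 27 tested were lower without overlap in KLS cells and 24 of 27 in GMP cells, with median differences from WT of −3.95 and −3.73 on the log2(normalised count + 1) scale. The median over all genes was −0.01 and −0.02, and over the 10 genes it was −1.82 in KLS and −2.65 in GMP cells. The summed globin RNA was 1028 to 1170 rpm in WT KLS cells against 14.4 to 60.8 in Daxx F/F, and Hbb-bs, the adult beta-globin, was at 14496 to 15738 normalised counts against 176 to 794. The WT level at 24 w.p.i. was itself high among WT KLS cells. Globin sums of WT were 5.43 to 19.4 rpm at 3 w.p.i., 1.27 to 4.15 in the untimed set and 49.4 to 182 in the Pu.1 line. Age, kit, line and possible transplantation of the untimed cells cannot be told apart there. The erythropoietin receptor gene Epor was at 274 to 323 against 7.34 to 72.1. Of haem synthesis genes, 8 of 11 were lower without overlap in each population. Of megakaryocyte and platelet genes outside the 10 the counts were 6 of 18 lower and 1 higher in KLS cells and 9 of 18 lower and 1 higher in GMP cells. Erythroid RNA as a whole moved with the members in these sorts. Summed over the list without globins it was 1930 to 2302 rpm in WT KLS cells against 497 to 777, and its part in the members' values was not tested. Mast cell genes, which share Gata1 and Gata2, were 300 to 316 rpm in WT GMP cells against 152 to 233 in Daxx F/F. In KLS cells mast cell genes were higher in Daxx F/F, at 66.6 to 93.6 rpm against 34.2 to 65.4 in WT. Of 9 tested there 4 were higher and 3 lower without overlap, and of 7 in GMP cells 0 and 3. Eosinophil genes were 731 to 1320 rpm in WT GMP cells against 18.5 to 637. In KLS cells eosinophil sums overlapped, at 26.1 to 71.4 rpm in WT against 6.03 to 84.2. Granulocyte and monocyte genes summed to 16488 to 17535 rpm in WT GMP cells against 10625 to 14447 in Daxx F/F. In KLS cells their sums went the other way but overlapped, at 1679 to 2457 rpm in WT against 2364 to 4321. Of 12 tested 5 were higher and 0 lower without overlap in KLS cells, and 2 higher and 5 lower in GMP cells. The part of these lists was not tested.

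In the untimed KLS cells 5 of 9 tested genes fell in Daxx-KO (limma, adjusted p under 0.05 across all 13508 genes), where 23.1% of all genes were called, 12.5% lower and 10.6% higher. Groups that did not overlap were found for 6 of the 9 on the lower side and 1 on the higher side, beside 29.8% and 32.9% of all genes. All limma p-values here rest on a spread between these samples that is shared across genes, not on the libraries of a single gene alone. The labels do not state a separate origin of the samples. Gfi1b was at 209.9 and 129.2 normalised counts in WT and at 32.8 and 16.1 in Daxx-KO, a fall of 6.9-fold (log2 change −2.79, SE 0.41, adjusted p = 0.00165). Tal1 was at 612 and 450 in WT and at 135 and 141 in Daxx-KO, a fall of 3.79-fold (−1.92, SE 0.18, adjusted p = 0.000147). Both WT libraries lay above both Daxx-KO libraries for these factors.

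The platelet integrin Itga2b was at 277 and 253 normalised counts in WT and at 66.7 and 44.9 in Daxx-KO, a fall of 4.77-fold (−2.25, SE 0.25, adjusted p = 0.000353). Vwf was at 292 and 260.1 in WT and at 121.4 and 121.5 in Daxx-KO, a fall of 2.26-fold (adjusted p = 0.00176). Zfpm1 was at 912 and 791 in WT and at 622 and 536 in Daxx-KO, a fall of 1.47-fold (adjusted p = 0.0168). The GATA factors did not move with them: Gata1 was at 25.8 and 22.4 in WT and at 26.3 and 22.1 in Daxx-KO (log2 change 0.00, adjusted p = 0.997), and Gata2 was at 883 and 863 in WT and at 1152 and 1049 in Daxx-KO (0.33, adjusted p = 0.0571). Pf4, at 32.7 and 19.0 against 8.75 and 6.06, and Car1, at 89.5 and 8.61 against 8.75 and 3.03, missed the threshold (adjusted p = 0.101 and 0.169). Klf1, at 8.60 and 0 against 6.56 and 6.67, was below the filter of a mean of 10 and was not tested. Without either Daxx-KO library 1 gene, Itga2b, passed the threshold.

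In the same cells 9 of 14 tested megakaryocyte and platelet genes outside the 10 fell and 1 rose. Their median was −1.84 on the log2 scale, beside 0.03 over all genes and −1.64 over the 9 tested members. Mmrn1, which encodes multimerin of platelet granules, fell by 5.46 and Itgb3, the partner subunit of Itga2b, fell by 4.70, while Selp, P-selectin, rose by 1.51. Of 15 tested erythroid genes 2 rose and 4 fell (median −0.30), led by Hbb-bt, a beta-globin with a near-identical copy, at 3.71, and by Samd14 at −2.96. Of 11 haem synthesis genes 1 rose, Alas1, the housekeeping form of the first enzyme of the pathway, by 3.21. Of 21 partner and regulator genes 4 rose and 3 fell, among them Gfi1, the paralog of Gfi1b, which rose by 1.36, and Sox6, which fell by 1.57. Stem cell genes fell in 12 of 14 tested, with sums of 7231 to 7393 rpm in WT against 1889 to 2005 in Daxx-KO, and granulocyte and monocyte genes rose in 11 of 12, with sums of 350 to 493 against 2237 to 2773 rpm. B and plasma cell genes fell in 6 of 7 and 1 rose (median −5.92), with sums of 486 to 680 rpm in WT against 22.2 to 27.4 in Daxx-KO. Of endothelial genes 4 of 6 fell and 2 rose, and macrophage genes rose in 2 of 4, with sums of 19.8 to 22.3 against 84.6 to 87.4 rpm. Some of these lists thus fell as the members did, while others rose or went both ways. Their part in the members' values was not tested.

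In the untimed GMP cells 6 of 9 tested genes fell in Daxx-KO, where 33% of all 12744 genes were called, 16.5% lower and 16.6% higher. The groups did not overlap in 7 of the 9 on the lower side and 1 on the higher side, beside 34.1% and 33.1% of all genes. Tal1 was at 228 and 248 normalised counts in WT and at 46.6 and 28.6 in Daxx-KO, a fall of 6.35-fold (−2.67, SE 0.28, adjusted p = 0.000135). Gata2 was at 578 and 540.4 in WT and at 207 and 122 in Daxx-KO, a fall of 3.51-fold (−1.81, SE 0.22, adjusted p = 0.000356). Gata1 was at 85.9 and 70.5 in WT and at 36.5 and 15.9 in Daxx-KO, a fall of 3.13-fold (adjusted p = 0.016). Unlike in the KLS table, both GATA factors were among the genes that passed, and the difference between the populations was not tested.

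Gfi1b was at 44.2 and 43.4 normalised counts in WT and at 16.2 and 3.67 in Daxx-KO, a fall of 5.0-fold (adjusted p = 0.0229). Itga2b was at 302 and 263 in WT and at 144 and 38.7 in Daxx-KO, a fall of 3.72-fold (adjusted p = 0.0143). Car1 was at 103 and 118 in WT and at 34.5 and 8.57 in Daxx-KO, a fall of 6.02-fold (adjusted p = 0.0063). In all 6 called genes the second Daxx-KO library was the lower. Pf4 (45.5 and 35.2 against 34.5 and 18.4), Zfpm1 (224 and 189 against 205 and 135) and Vwf (112 and 84.9 against 178 and 136) did not pass, the last on the higher side with a log2 change of 0.67 and adjusted p = 0.0541. Klf1, at 6.50 and 15.4 against 8.11 and 8.16, was again below the filter. Without either WT library 2 genes, Gata2 and Tal1, passed the threshold.

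Among the other lists in untimed GMP cells, 7 of 15 erythroid genes fell and none rose (median −1.30), led by the blood group genes Ermap (−3.04) and Kel (−3.03). Of 13 megakaryocyte and platelet genes 3 rose and 3 fell, with the matrix protein gene Thbs1 at 4.70 and Itgb3 at −2.66. Of 11 haem synthesis genes 2 rose and 3 fell. Of 21 partners 8 rose and 4 fell, Lmo2, an adaptor of the Tal1 complex, rising by 1.39. All 7 tested mast cell genes fell (median −4.71), with sums of 618 to 631 rpm in WT against 21.8 to 57.2 in Daxx-KO, and all 7 tested eosinophil genes fell (median −3.35), with sums of 643 to 682 against 109 to 190 rpm. Mast cells and eosinophils use Gata1 and Gata2 too, and the part of these cells in the GATA values was not tested.

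At 3 w.p.i. 1 of the 10 genes, Itga2b, passed the threshold in Daxx-KO against WT KLS cells, where 0.257% of all 15200 genes were called, 0.0724% lower and 0.184% higher. Itga2b was at 1086, 817 and 864 normalised counts in WT and at 398, 419.9 and 432 in Daxx-KO, a fall of 2.19-fold (−1.13, SE 0.17, adjusted p = 0.0281). The groups did not overlap and the Daxx-KO values lay close together. Without any 1 of the 3 Daxx-KO libraries, WT 1 or WT 2, none of the 10 passed (0 genes), and without the unnumbered WT library 3 passed.

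Gata1 was at 132, 178 and 158 normalised counts in WT and at 58.8, 97.8 and 41.9 in Daxx-KO, which did not overlap but missed the threshold (−1.30, adjusted p = 0.253). Pf4, at 51.9, 63.6 and 78.0 against 7.92, 17.9 and 14.6, behaved alike (−2.22, adjusted p = 0.247), as did Tal1, at 1982, 2057 and 1455 against 1242, 1134 and 1326 (−0.56, adjusted p = 0.247). Zfpm1 was at 6124, 7005 and 4286 in WT and at 3724, 3778 and 3592 in Daxx-KO (−0.62, adjusted p = 0.278). In all, 5 genes were lower without overlap and 1, Gfi1b, was higher, at 430.1, 425 and 363 against 535, 504 and 574 (0.41, adjusted p = 0.638). Over all genes 9.16% were lower and 9.07% higher without overlap.

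In the libraries labelled DKO 5 of the 10 genes fell against WT, where 17.6% of all genes were called, 8.4% lower and 9.24% higher. In 6 of the 10 DKO lay below WT without overlap, beside 23.7% of all genes, and in 0 above, beside 26%. The WT libraries are those of the previous comparison. Gata2 was at 3250, 3404 and 1711 normalised counts in WT, at 1859, 1946 and 2074 in Daxx-KO and at 813 and 887 in DKO. DKO lay below both other groups, by 3.14-fold against WT (−1.65, SE 0.26, adjusted p = 0.00317) and by 2.3-fold against Daxx-KO (−1.20, SE 0.26, adjusted p = 0.0131). Gata1, at 35.5 and 38.6 in DKO, fell 4.11-fold against WT (−2.04, SE 0.41, adjusted p = 0.00967). Zfpm1, at 2010 and 2658 in DKO, fell 2.46-fold (adjusted p = 0.00345), and Tal1, at 1006 and 968, fell 1.83-fold (adjusted p = 0.00896).

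Vwf was at 1941, 2133 and 1393 normalised counts in WT, at 1525, 722 and 2360 in Daxx-KO and at 426 and 811 in DKO, a fall of 3.05-fold from WT to DKO (adjusted p = 0.0333). This call was lost with edgeR (adjusted p = 0.0556). Itga2b went the other way from Gata2. It was at 722 and 965 in DKO, which overlapped WT, and rose 2.0-fold against Daxx-KO (1.00, SE 0.19, adjusted p = 0.00635). In DKO against Daxx-KO, where 15.4% of all genes were called, 7.22% lower and 8.17% higher, Gata2 and Itga2b were thus the 2 of 10 genes that passed. Without regard to the test, 4 genes were lower and 1 higher without overlap, beside 22.3% of all genes in either direction. Klf1 (25.9, 129.8 and 105 in WT, 12.5, 82.5 and 11.5 in Daxx-KO, 38.3 and 23.1 in DKO) and Car1 (88.6, 524 and 445, then 47.5, 267 and 41.9, then 188 and 39.5) varied as much within groups as between them. Without DKO 1, 1 gene passed against WT, Gata2, and 1 against Daxx-KO, Itga2b.

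Outside the 10, no gene of the erythroid, megakaryocyte, haem or partner lists passed in Daxx-KO against WT. In DKO against WT, 3 haem synthesis genes rose and 1 fell of 11, with Alas1 at 2.18 and Fech, ferrochelatase, at 1.73. Of 16 megakaryocyte and platelet genes 2 rose and 1 fell, led by Thbs1 at 5.74 and the tetraspanin gene Cd9 at 1.79. Of 25 erythroid genes 1 fell, Car2 (−0.66), and of 21 partners 4 rose and 4 fell, with Gfi1 at 2.83 and Sox6 at −2.67. In DKO against Daxx-KO, 2 erythroid genes rose, the alpha-globin gene Hba-a1 by 2.69 and Blvrb, a biliverdin reductase, by 1.04, and 3 haem synthesis genes rose, led by the mitochondrial transporter Abcb10 at 2.57. In the same contrast 2 megakaryocyte genes rose and 1 fell, and 4 partners rose and 3 fell. Granulocyte and monocyte genes rose in 7 of 12 against WT, with sums of 8089 to 9131 rpm in DKO against 696 to 3946 in WT and 575 to 1248 in Daxx-KO. Stem cell genes fell in 7 of 14 against WT, with sums of 2545 to 3575 rpm in DKO against 6448 to 9196 in WT. Eosinophil gene sums ran from 45.1 to 4007 rpm within WT and from 34.2 to 159 rpm in DKO. Their part in the members' values was not tested.

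In GMP cells at 3 w.p.i. none of the 10 genes passed the threshold in any of the 3 comparisons. With limma 0 were called while 3, 2 and 3 had an unadjusted p under 0.05 in Daxx-KO against WT, DKO against WT and DKO against Daxx-KO; edgeR called 0 in each and DESeq2 0, 1 and 1. Of all 13714 genes 0.0948%, 0.292% and 0.0583% were called. These split into 0.0292% lower and 0.0656% higher in Daxx-KO against WT, 0.0802% lower and 0.211% higher in DKO against WT, and 0% lower and 0.0583% higher in DKO against Daxx-KO. The 3 comparisons share their libraries in pairs.

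The widest gap was that of Vwf, at 179, 350.4 and 123 normalised counts in WT, at 81.1, 61.8 and 121 in Daxx-KO and at 72.0 and 19.7 in DKO (DKO against WT −2.35, adjusted p = 0.227). Gata2 was at 1231, 1966 and 696 in WT, at 784, 765 and 829 in Daxx-KO and at 3302 and 1848 in DKO. Both DKO libraries lay above all 3 Daxx-KO libraries (1.64, adjusted p = 0.177), whereas in KLS cells of the same animals DKO lay below. Libraries WT 2, Daxx-KO 2 and DKO 1 of the GMP cells stood apart from the others of their groups, with eosinophil gene sums of 1040 to 2129 rpm against 5060 to 8961 and granulocyte and monocyte sums of 7719 to 10997 rpm against 14445 to 16519. The highest Gata2 values of WT and DKO were in WT 2 and DKO 1. Without DKO 1 the Gata2 difference from Daxx-KO was 1.22, without Daxx-KO 2 it was 1.61, and the part of these cells was not tested. Gata1 followed, at 240, 191.5 and 191.5 in WT, 102, 108 and 121 in Daxx-KO and 289 and 131 in DKO. Itga2b, at 945, 1003 and 555 in WT, was at 420, 449 and 507 in Daxx-KO and at 1110 and 562 in DKO. Daxx-KO was below WT without overlap in Gata1, Vwf and Itga2b, 3 genes of 10 beside 3.46% of all genes lower and 4.64% higher. DKO was above Daxx-KO without overlap in Gata1, Gata2 and Itga2b, beside 10.7% of all genes higher and 9.98% lower. Against WT, DKO was lower without overlap in Vwf and higher in Gfi1b, beside 8.41% and 10.1%. The only called gene of the 4 pathway lists was Thbs1, which rose by 5.32 in DKO against WT. Mast cell gene sums were 458 to 489 rpm in WT, 226 to 303 in Daxx-KO and 383 to 640 in DKO.

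**Figure D3:**
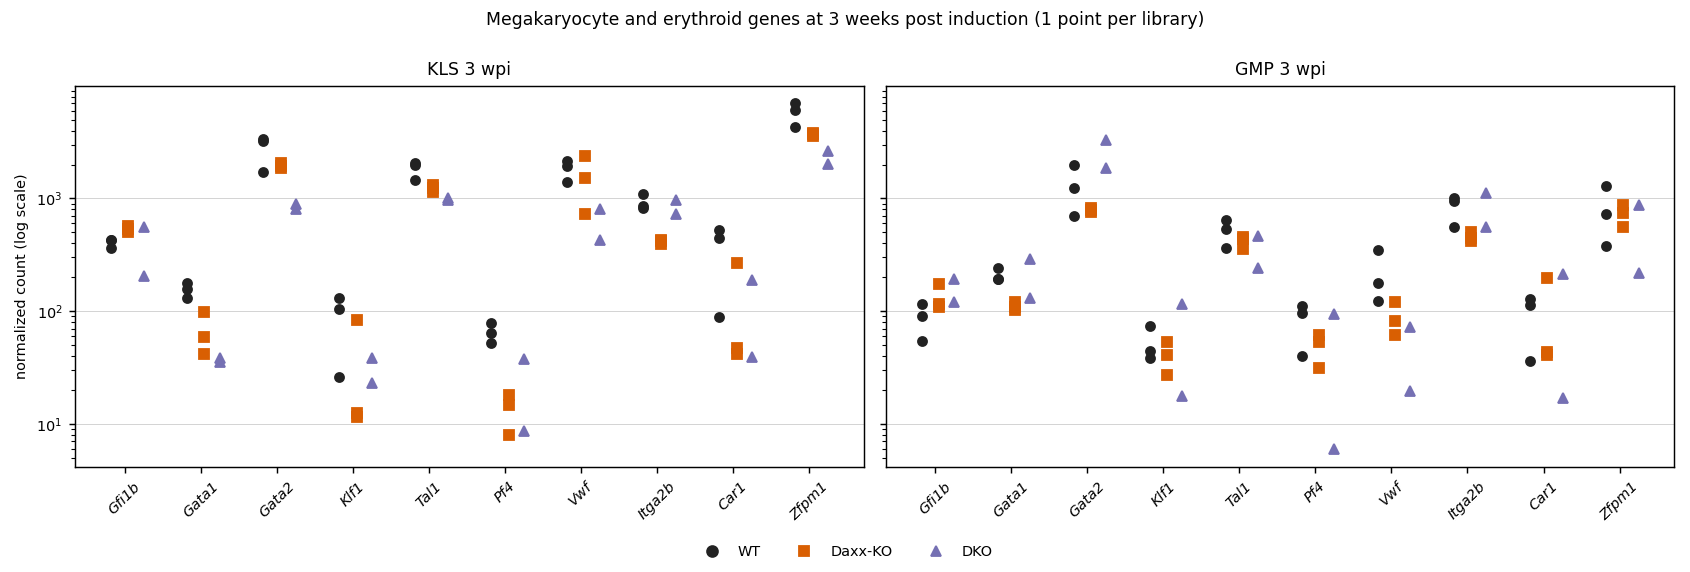
Normalised counts (log axis) of the 10 genes in KLS and GMP cells at 3 w.p.i., 1 point per library, with 3 WT, 3 Daxx-KO and 2 DKO. In KLS cells the DKO points of Gata2 lie below both other groups, whereas in GMP cells they lie above the Daxx-KO points.

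In the Pu.1 line, where no Daxx allele is named, all 10 genes were lower in both Pu.1-KO KLS libraries than in both WT libraries. Of all 23459 genes 31.9% were lower and 33.7% higher without overlap. Past the threshold 3 of the 10 fell, beside 0.81% of all genes called, 0.341% lower and 0.469% higher. Pf4 was at 1662 and 824 normalised counts in WT and at 115.8 in each Pu.1-KO library, a fall of 10-fold (−3.33, SE 0.58, adjusted p = 3.2e-05). Klf1 was at 588 and 435 in WT and at 161 and 39.7 in Pu.1-KO, a fall of 6.24-fold (−2.64, SE 0.61, adjusted p = 0.0108). Gata2 was at 2587 and 1959 in WT and at 718 and 329 in Pu.1-KO, a fall of 4.62-fold (−2.21, SE 0.59, adjusted p = 0.0378). Library b of Pu.1-KO, which stood apart from the table, was the lower for Klf1 and Gata2.

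The other regulators had smaller differences, which missed the threshold. Tal1 was at 1857 and 1541 normalised counts against 735 and 291 (−1.87, adjusted p = 0.0615), Zfpm1 at 6988 and 5675 against 2818 and 999.8 (−1.91, adjusted p = 0.086), Gfi1b at 621 and 511 against 278 and 136 (−1.53, adjusted p = 0.101) and Gata1 at 305 and 266 against 152 and 113 (−1.11, adjusted p = 0.226). Itga2b was at 1681 and 1183 against 506 and 362, Car1 at 1578 and 1343 against 714 and 349, and Vwf at 1818 and 1508 against 724 and 1054. Daxx itself was at 295 to 478 in Pu.1-KO against 625 to 920 in WT. The median over all genes was 0.12 on the log2 scale here and 0.27 under TMM scaling, and of all called genes 110 were higher and 80 lower, against 1388 and 357 under TMM, 1677 and 243 with edgeR and 954 and 403 with DESeq2. The count of members past the threshold moved with the libraries: 0 without WT a or without WT b, 8 without Pu.1-KO a and 1, Pf4, without Pu.1-KO b. Of 27 erythroid genes outside the 10, 4 fell (median −1.37), among them the alpha-globin gene Hba-a1, which has a near-identical copy, by 2.76 and the water channel Aqp1 by 2.20. No partner or haem synthesis gene passed, and of 20 megakaryocyte genes 1 rose, Thbs1, by 2.48. Of 8 eosinophil genes 4 fell, with sums of 360 to 540 rpm in WT against 127 to 168 in Pu.1-KO, and stem cell gene sums were 4512 to 4777 against 2055 to 3188 rpm.

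In GMP cells of the Pu.1 line 5 of 10 genes fell, where 17.6% of all 19337 genes were called, 8.49% lower and 9.15% higher. Car1 was at 668 and 702 normalised counts in WT and at 254 and 67.6 in Pu.1-KO, a fall of 5.18-fold (−2.37, SE 0.29, limma adjusted p = 4.66e-14). That SE is the spread shared across genes, and the Pu.1-KO values of Car1 lay far apart. Tal1 was at 493 and 603 in WT and at 286 and 190.1 in Pu.1-KO, a fall of 2.33-fold (adjusted p = 0.000399). Gfi1b was at 179.9 and 176 in WT and at 93.2 and 59.1 in Pu.1-KO, a fall of 2.38-fold (adjusted p = 0.0113). Klf1 was at 210 and 317 against 119 and 129, a fall of 2.07-fold (adjusted p = 0.0145), and Pf4 at 104 and 231 against 74.7 and 75.3, a fall of 2.05-fold (adjusted p = 0.0439). The Pf4 call was lost with TMM scaling, without the filter, with edgeR and with DESeq2, that of Gfi1b with edgeR (adjusted p = 0.0586) and that of Car1 with DESeq2 (adjusted p = 0.0805). The groups of these 5 genes did not overlap, and 8 of the 10 were lower without overlap, beside 33.5% of all genes lower and 31.5% higher.

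Gata1 (179 and 167 against 139 and 67.6), Gata2 (600 and 699 against 502 and 359) and Zfpm1 (1144 and 1494 against 990.2 and 726) were also lower without overlap but missed the threshold, with adjusted p = 0.0913, 0.0785 and 0.0506. Vwf and Itga2b overlapped. Without WT a or WT b 1 gene, Car1, passed, and without Pu.1-KO a all 10 did. Megakaryocyte and platelet genes outside the 10 went the other way, with 7 of 20 rising and 1 falling (median 0.75), led by Thbs1 at 3.66 and the platelet receptor gene Gp1bb at 3.31. Of 27 erythroid genes 4 rose and 7 fell. Hba-a1 rose by 1.67 and Hbb-bs by 1.42, whereas the erythropoietin receptor gene Epor fell by 1.71 and Sphk1 by 2.21. No erythroid gene (0 of 27) was higher without overlap, and summed globin RNA was at 17.7 and 60.01 rpm in WT against 255 in Pu.1-KO a and 43.3 in Pu.1-KO b, so the high globin values came from 1 library. Of 11 haem synthesis genes 3 fell, among them Alas1 by 1.00, and of 21 partners 1 rose and 5 fell, with Myb at −0.98. Granulocyte and monocyte genes fell in 4 of 12 and 1 rose, with sums of 20954 to 21800 rpm in WT against 11227 to 15693 in Pu.1-KO. B and plasma cell genes rose in 6 of 9, with sums of 110.6 to 111.5 against 239.5 to 496 rpm, and macrophage genes rose in 4 of 10, with sums of 259 to 267 against 347 to 409 rpm. Their part in the members' values was not tested.

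In LT-HSC the 7 libraries, which hold 3 genotypes not told apart, spread most in Pf4, Klf1, Car1 and Gata1. Pf4 ran from 47.7 to 2152 normalised counts with a median of 1230, Gata1 from 41.2 to 527 (median 399.9), Klf1 from 15.2 to 280.5 (median 237) and Car1 from 97.7 to 1414 (median 955). Gata2 (3010.4 to 4899.7, median 4095), Gfi1b (409 to 791, median 489) and Zfpm1 (4595 to 9888, median 8804) spread less. Tal1 ran from 1226 to 2539, Vwf from 1228 to 4920 and Itga2b from 1239 to 5369. Library b was the lowest of the 7 in 8 of the 10 genes, and library c the highest in Gata1, Pf4, Vwf, Itga2b and Zfpm1.

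Between MPP3 and MPP4 cells of the same 4 animals no gene passed the threshold. With limma 0 of the 10 were called and 0% of 20137 genes, 4 had an unadjusted p under 0.05, and edgeR and DESeq2 also called 0. Zfpm1 was at 3192, 3226, 2155 and 2416 normalised counts in MPP3 and at 1975, 1047, 969 and 2348 in MPP4 (0.88, SE 0.30, adjusted p = 0.999), and without MPP3 d and MPP4 a, the libraries that stood apart, the difference was 1.07 (SE 0.34). Gata2 was at 1763, 1333, 1841 and 1357 against 746, 1042, 762 and 1594. Tal1 was at 1180, 999, 1093 and 1127 against 569, 313, 576 and 1326, and Itga2b at 942, 689, 654 and 684 against 530, 389, 178 and 661. Within animals, MPP3 was above MPP4 in all 4 animals for Zfpm1 and Itga2b and in 3 of 4 for Gata2 and Tal1, and with the animal as a block 0 genes were called (adjusted p = 0.999 for each member). The groups overlapped in all 10 genes, beside 0.149% of all genes higher and 0.288% lower without overlap. Vwf was at 66.4 to 85.5 in 3 MPP3 libraries and at 872 in MPP3 d, and at 26.6 to 144 in 3 MPP4 libraries and at 1100.2 in MPP4 a.

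**Figure D4:**
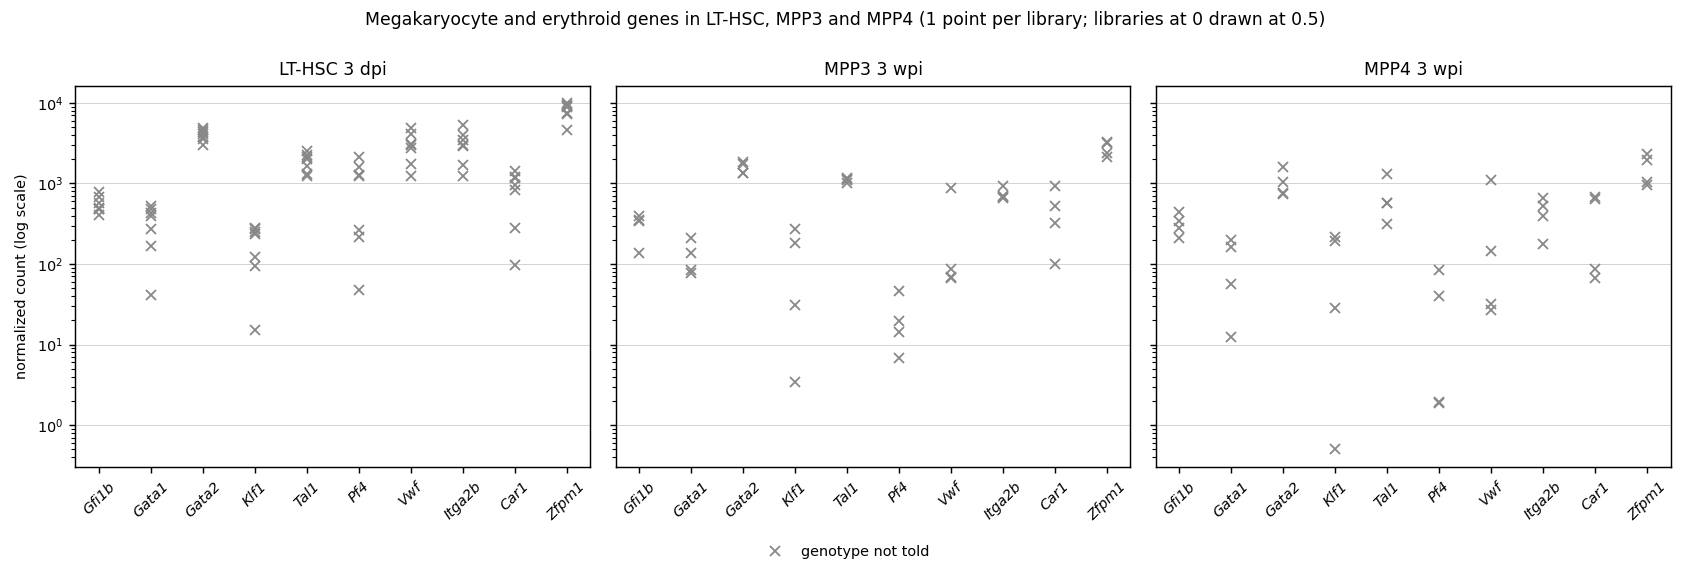
Normalised counts (log axis) of the 10 genes in 7 LT-HSC, 4 MPP3 and 4 MPP4 libraries, 1 point per library and genotype not told, with a value of 0 drawn at 0.5. Vwf and Pf4 spread widely within each population, and MPP3 and MPP4 points overlap in every gene.

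Over the 10 genotype comparisons with a test, Gata2 and Tal1 passed as lower in 4 each, Gfi1b and Itga2b in 3, and Gata1, Klf1, Pf4, Vwf, Car1 and Zfpm1 in 2, Klf1 having been tested in 8. The one call in the higher direction was Itga2b in DKO against Daxx-KO KLS cells. The comparisons within a table share WT libraries, so these counts are not independent. The median log2 change over the 9 tested members was −1.64 and −1.81 in untimed KLS and GMP cells. Over all 10 genes it was −1.79 and −0.93 in KLS and GMP cells of the Pu.1 line. In Daxx-KO against WT at 3 w.p.i. it was −0.88 in KLS and −0.47 in GMP cells. For DKO against WT it was −1.45 in KLS and −0.27 in GMP cells, and for DKO against Daxx-KO −0.49 in KLS and −0.0025 in GMP cells, while the median over all genes ranged from −0.01 to 0.12.

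**Figure D5:**
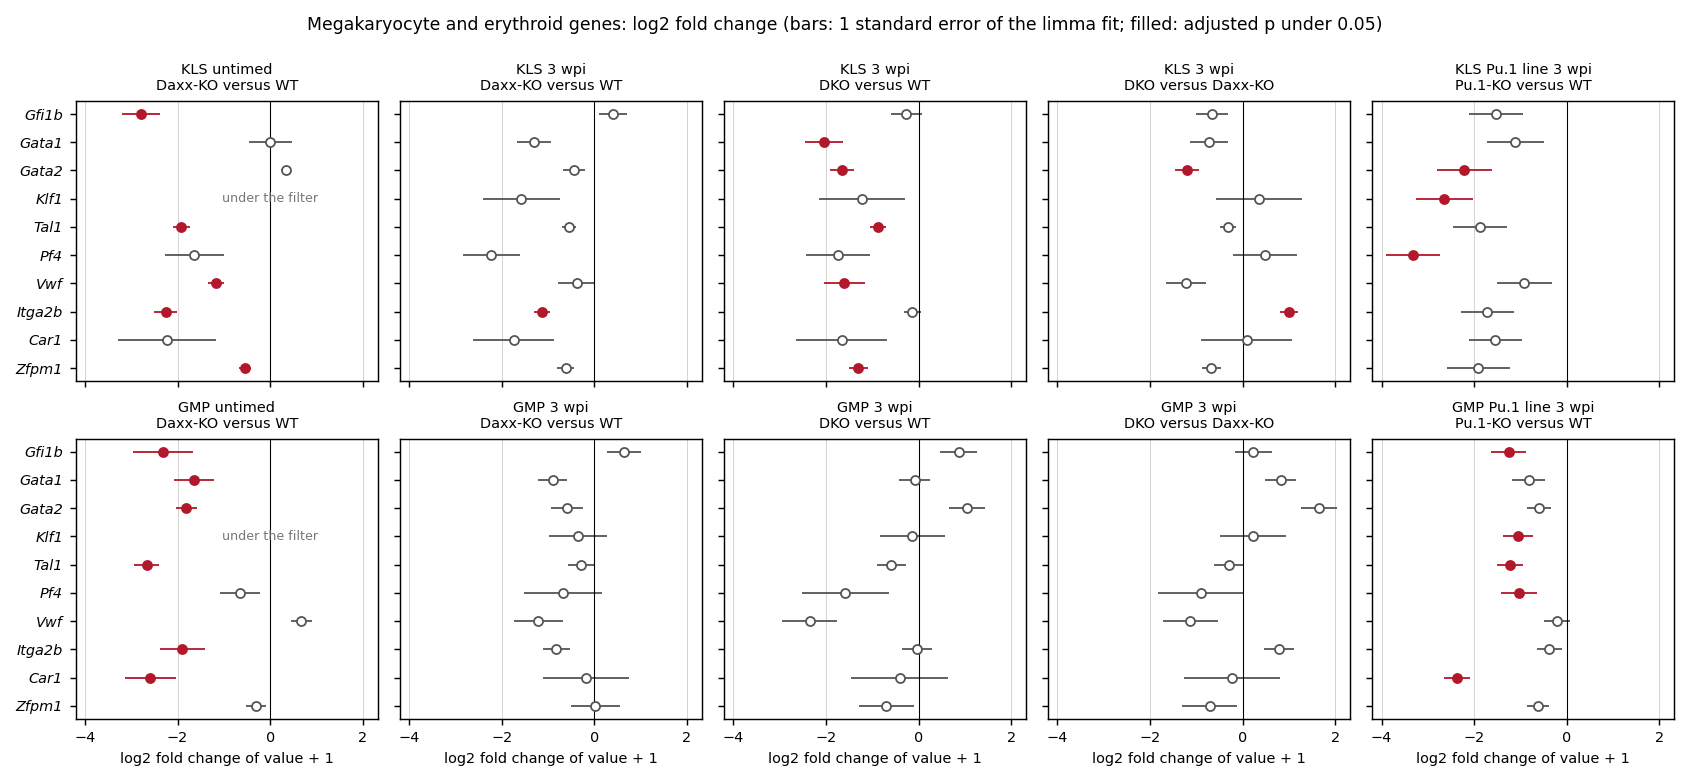
Log2 change (limma, log2(normalised count + 1)) of each of the 10 genes in the 10 genotype comparisons, with bars of 1 SE and filled points where the adjusted p is under 0.05. Most points lie left of 0, and Itga2b in DKO against Daxx-KO KLS cells is the only filled point to the right.

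The genes varied together over the 59 libraries. Pearson's r on log2(normalised count + 1), centred within each table, between the 45 pairs of members ran from 0.27 (Gata2 with Vwf) to 0.81 (Pf4 with Car1), with a median of 0.62. These are descriptions, since the libraries share tables, depth, cell types and genotypes. Centring within a table did not remove genotype, so r includes the genotype differences given above. Among 11429 genes those close to Klf1 included Sptb (r = 0.84), a gene of the red cell membrane skeleton, and Cpox (0.78), a haem synthesis enzyme. The closest to Gata1 were Aqp1 (0.84), Car1 (0.80) and Pf4 (0.79), and Aqp1 also led for Car1 (0.90) and Pf4 (0.84). Gata2 was closest to Nrip1 (0.79) and Ikzf2 (0.78), Tal1 to Slc22a3 (0.88) and the transferrin receptor gene Tfr2 (0.84), and Zfpm1 to Shank3 (0.91) and Nol4l (0.83). Genes close to Gfi1b included Slc22a3 (0.78) and Ptger3 (0.78). Vwf was closest to Mical3 (0.81), Slc22a23 (0.79) and Slamf1 (0.78), which encodes the stem cell surface marker CD150. Itga2b was closest to Sept8 (0.78) and Tal1 (0.78).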

How the data were processed

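RNA-seq of sorted mouse bone marrow cells was taken from 10 gene tables holding 59 libraries. The tools were read from the labels of 1 sample, which give CASAVA 1.8.4, cutadapt 1.13, STAR 2.5.3 and DESeq2 1.16.1. Whether these versions hold for all 59 libraries was not checked. The methods name CASAVA 1.8.4 for RNA-seq of cells from transplanted animals and not for the other RNA-seq libraries. The paper gives mm10 with GENCODE annotation. The counting program and its strand setting are not given in the sources used here, and the labels and methods name different library kits. The deposited values are a signal unit, namely read counts that the authors divided by 1 size factor per library. Of the positive values 100% gave whole reads within a tolerance of 0.01 once the factor was removed, which gave depths of 3045852 to 30136629 reads. Each gene table was normalised separately, so tests were made only within a table.

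The 10 members and the compared lists were chosen with earlier results of these data known. Values were tested as log2(normalised count + 1) with limma 3.58.1 (trend, R 4.3.3) over all libraries of a table, for genes with a mean of at least 10, with Benjamini-Hochberg adjustment over all genes tested and a call at adjusted p under 0.05. The fit shares the spread across genes, and in the Pu.1 line the shared spread wholly replaced that of the gene itself. Small p-values there do not measure the spread of the gene's own libraries. Count tests were run on the recovered reads as alternatives. Fold changes on this scale understate the change of low genes. Scripts were tested on simulated data. Alternatives were log2(value + 5), no filter, TMM, edgeR 4.0.16, DESeq2 1.42.0, the compared groups only, a replicate block and leaving out each library. At 24 w.p.i. WT and Daxx F/F were told apart by column-name endings in the repeat-element counts that the labels name. The gene-level column names carry no such ending, and no test was made. MPP3 and MPP4 libraries of 1 letter come from the same animal, with correlations of their deviations from −0.444 to 0.547. KLS and GMP libraries of 1 animal are in separate tables. All 10 members are described in each table. Of the other lists, up to 2 called genes with the largest rise and fall were named from partners, megakaryocyte, erythroid and haem genes, and lists of other cell types are given by counts and sums for those that moved most. Promoter windows of 300 bases are from RefSeq. Some of the genes whose pattern was most like that of a member are not reported here.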

Additional observations from a re-analysis of the deposited data

Results flagged for a closer look

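Over the 10 genes in 5 groups of 4 to 7 libraries, 4 of 50 sets of values held a library far from the others. The cutoff is set to flag about 1 in 20 sets drawn independently from 1 population. These groups mix genotypes and the genes share libraries, so that rate does not apply here and the count was not tested. Pf4 was at 5.49 normalised counts in the GMP library a of Daxx F/F at 24 w.p.i., against 72.4 to 79.8 in the other 3. Vwf was at 872 in MPP3 d, against 66.4 to 85.5 in the other MPP3 libraries, and at 1100.2 in MPP4 a, against 26.6 to 144 in the other MPP4 libraries. Itga2b was at 942 in MPP3 a, against 654 to 689.

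Some members had differences of opposite sign in KLS and GMP cells under the same contrast, with no overlap between the groups in either, though none passed the threshold in both populations and Gata1 passed in neither. The differences between the populations were not tested because the tables were normalised separately. In the untimed Daxx-KO against WT, the log2 change of Gata2 was 0.33 in KLS and −1.81 in GMP cells, and that of Vwf was −1.18 in KLS and 0.67 in GMP cells. In DKO against Daxx-KO at 3 w.p.i., Gata1 was at −0.74 in KLS and 0.82 in GMP cells, and Gata2 at −1.20 in KLS and 1.64 in GMP cells.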

How the results depend on the processing

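Over the alternatives, 252 of 308 values of the 27 called results stayed past the threshold in the same direction, 56 missed it and 0 reversed. Of 1080 alternatives of the 81 uncalled results 41 passed. Counts of called members, leaving out each library in turn, ran from 1 to 7 in untimed KLS cells, 2 to 7 in untimed GMP cells, 0 to 3, 1 to 6 and 1 to 3 in the KLS comparisons of Daxx-KO against WT, DKO against WT and DKO against Daxx-KO at 3 w.p.i., 0 to 8 in KLS and 1 to 10 in GMP cells of the Pu.1 line, and 0 in GMP cells at 3 w.p.i. and in MPP cells. At 24 w.p.i. 9 and 10 members stayed without overlap throughout. DESeq2 called 2 members in Daxx-KO against WT KLS cells and 4 in DKO against Daxx-KO, 1 (Vwf) and 1 (Gata2) in the DKO comparisons of GMP cells, 6 in KLS and 3 in GMP cells of the Pu.1 line. In that line TMM gave 6 and edgeR 5 in KLS cells, and edgeR 3 in GMP cells. Vwf in untimed GMP cells passed as higher without the filter, under TMM and under the block. Zfpm1 in untimed KLS cells was lost without the filter (adjusted p = 0.0749) and Itga2b in untimed GMP cells with DESeq2 (0.162). The causes were not tested.

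Replicate numbers paired no libraries of different genotype: same-numbered libraries correlated at −0.0095 in untimed KLS, −0.111 in untimed GMP and −0.214 to 0.126 in KLS cells at 3 w.p.i. With a replicate block 5 members were called in untimed KLS cells, 7 in untimed GMP cells (7 with crossed numbers, chosen after seeing the data), and 0, 5 and 2 at 3 w.p.i. Counts of all called genes moved from 3118 to 1751 without the filter in untimed KLS cells, from 39 to 342 (DESeq2) or 81 (block) in Daxx-KO against WT KLS cells at 3 w.p.i., with 28 higher and 11 lower against 201 and 141 by DESeq2, and from 2340 to 1283 (block) in DKO against Daxx-KO. In the Pu.1 line they moved from 190 to 1745 (TMM), 1920 (edgeR) and 1357 (DESeq2) in KLS cells. In GMP cells at 3 w.p.i. they moved from 13 to 80 with DESeq2, from 40 to 263 with DESeq2 and 5 with the compared groups only, and from 8 to 280 with DESeq2, 17 with log2(value + 5), 18 with TMM, 20 with edgeR, 13 without the filter and 0 with the compared groups only. With 2 or 3 libraries per group, differences under about the spread between libraries were not detectable.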
